A study of Mus musculus with 16 samples.

Results

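Ventricular RNA of mice homozygous for JP2CR, an allele of Jph2 that makes junctophilin-2 resistant to calpain, was compared with that of wildtype (WT) littermates after transverse aortic constriction (TAC), surgery that narrows the aorta so that the left ventricle pumps against a high pressure. The comparison was chosen by label and holds 8 of the 16 libraries of the study, 4 from WT mice after TAC (WT TAC) and 4 from JP2CR mice after TAC (JP2CR TAC), with all genes counted in them. The other 8 libraries, 4 from WT and 4 from JP2CR mice after sham surgery, were used here for the spread between libraries and for the genotype difference without load. All mice were labelled male, of the C57BL/6N strain and fed normal chow, and had surgery at 9 to 10 weeks of age, with ventricles taken 5 weeks later. The knock-in is homozygous and, as far as the labels say, is not limited to a cell type or an age. How many founder lines it has, and which animal each library came from, is not given in the sources used here, so each p-value is set against library-to-library spread, which may be partly technical. The question is whether loaded ventricles differ in their transcripts when junctophilin-2 resists calpain.

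Junctophilin-2 bridges the transverse tubules and the sarcoplasmic reticulum of heart muscle cells, which keeps the voltage-gated calcium channels next to the ryanodine receptors that release calcium for each beat. Calpains are calcium-activated proteases that cut junctophilin-2 in the stressed heart. Pressure overload is known to switch ventricular muscle towards a fetal programme, with more beta myosin heavy chain (Myh7) and natriuretic peptides (Nppa, Nppb), and to raise Rcan1, an inhibitor and a transcriptional target of the calcium-activated phosphatase calcineurin.

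The deleted codons 563 to 568 lie in exon 4 of 6 of Jph2, at chr2:163339539-163339556 on the minus strand (GRCm38, the same assembly as mm10). They are shown from the GENCODE transcript with 10 codons on each side, the deleted 18 bases in capitals, because they are the only designed difference between the groups.
Jph2 codons 563 to 568 with flanks: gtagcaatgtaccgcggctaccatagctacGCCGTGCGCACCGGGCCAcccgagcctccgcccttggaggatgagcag
The deletion takes 0.427% of the 4211-base transcript, and reads of the rest of the gene are counted in both genotypes, so the Jph2 level is no check of the genotype labels. Jph2 was at 688, 636, 679 and 649 CPM (counts per library total, the usual depth-scaled unit, with totals scaled by TMM factors) in WT TAC 1 to 4 and at 671, 589, 634 and 630 CPM in JP2CR TAC 1 to 4. The ranges overlapped, and the log2 difference was -0.07 ± 0.06 (SE; edgeR adjusted p = 0.714).

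Total counts in the 8 TAC libraries ran from 11885303 to 14775678. A floor of 3 counts was 0.203 to 0.252 CPM there, which covers counting error only. Several libraries stood apart. JP2CR TAC 4 had 143 CPM of Xist, the RNA made from the silenced X chromosome of female cells, beside 120 CPM summed over 4 Y-linked genes, and JP2CR Sham 3 and 4 had 184 and 188 CPM of Xist with 0 counts of the Y-linked genes. In the other TAC libraries Xist was at most 0.271 CPM and the Y-linked sum was 197 to 233 CPM. WT TAC 3 was close to a weighted mean of WT TAC 1 and WT TAC 2 (weights 50.5% and 49.5%), with a squared residual 1.33 times that of counting noise. JP2CR TAC 3 was close to a weighted mean of JP2CR TAC 1 and JP2CR TAC 2 (46.6% and 53.4%), with a residual 1.48 times counting noise. In each fit of this kind that involved library 4 of a group, the residual was 3.45 to 25.2 times counting noise. Whether these 2 intermediate libraries are independent of libraries 1 and 2 of their groups is not known from the labels. If they are not, each TAC group holds 3 independent libraries, and the SDs, SEs and p-values given with n = 4 are too small. Gene counts and the values of some genes are therefore given below with and without them. Defining ventricular markers were abundant in both groups: 13 of them summed to 81500 to 87600 CPM in WT TAC and to 80400 to 85700 CPM in JP2CR TAC.

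After TAC, 49 genes were higher and 39 lower in JP2CR than in WT ventricles (adjusted p under 0.05 by the Benjamini-Hochberg method in the quasi-likelihood test of edgeR, termed called from here on). Of 13522 genes tested these were 0.362% and 0.288%, or 0.651% in either direction. The median log2 difference was 0.70 over the genes called higher and -0.42 over those called lower, against -0.003 over all genes tested. Of the 88, 18 differed by more than 2-fold, 16 higher and 2 lower (Rcan1 and the uncharacterized D430019H16Rik). In 84 of the 88 the 4 libraries of 1 group lay all above those of the other, the exceptions being Rcan1, Grip2, Vegfa and Retn; over all tested genes that was so for 3.96% with JP2CR higher and 4.13% with JP2CR lower. An unadjusted p under 0.05 was reached by 1740 genes, 12.9% of those tested.

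**Figure D1:**
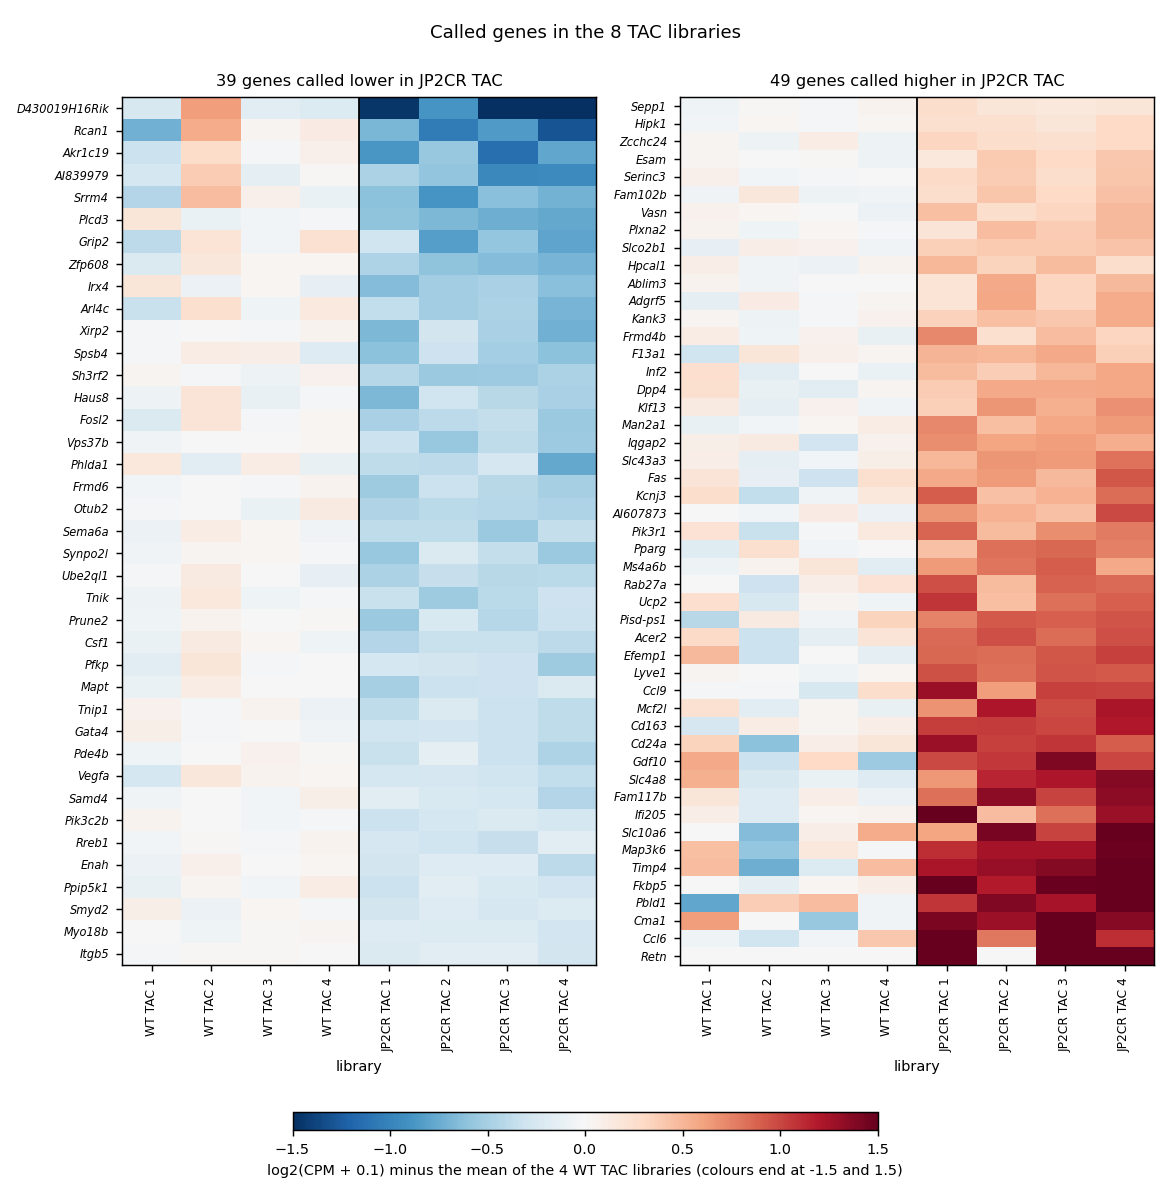
Each row is a called gene (39 lower on the left, 49 higher on the right) and each column a TAC library; colour gives log2(CPM + 0.1) minus the mean of the 4 WT TAC libraries, with colours ending at -1.5 and 1.5. WT TAC 3 and JP2CR TAC 3 lie between libraries 1 and 2 of their groups in most rows, and the folds of the genes called lower are smaller than those of the genes called higher.

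The number of called genes depended on single libraries. Without the 2 intermediate libraries 2 genes were called higher (Cd163 and Man2a1) and 2 lower (Sh3rf2 and Plcd3). All other genes of the 88, including those given below with all libraries only, lost their call there. The median size of the log2 difference over the 88 genes was 0.52 in both fits, while their median SE went from 0.096 to 0.114. Without the 3 libraries with Xist 228 were called higher and 150 lower, without all 5 of these libraries 14 and 5, and in a fit without these 5 and without the sham groups, chosen after the data were seen, 0 and 0 by edgeR, with 414 higher and 299 lower at an unadjusted p under 0.05 and no other tool run on those libraries. DESeq2 called 131 higher and 101 lower, among them all 88.

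**Figure D2:**
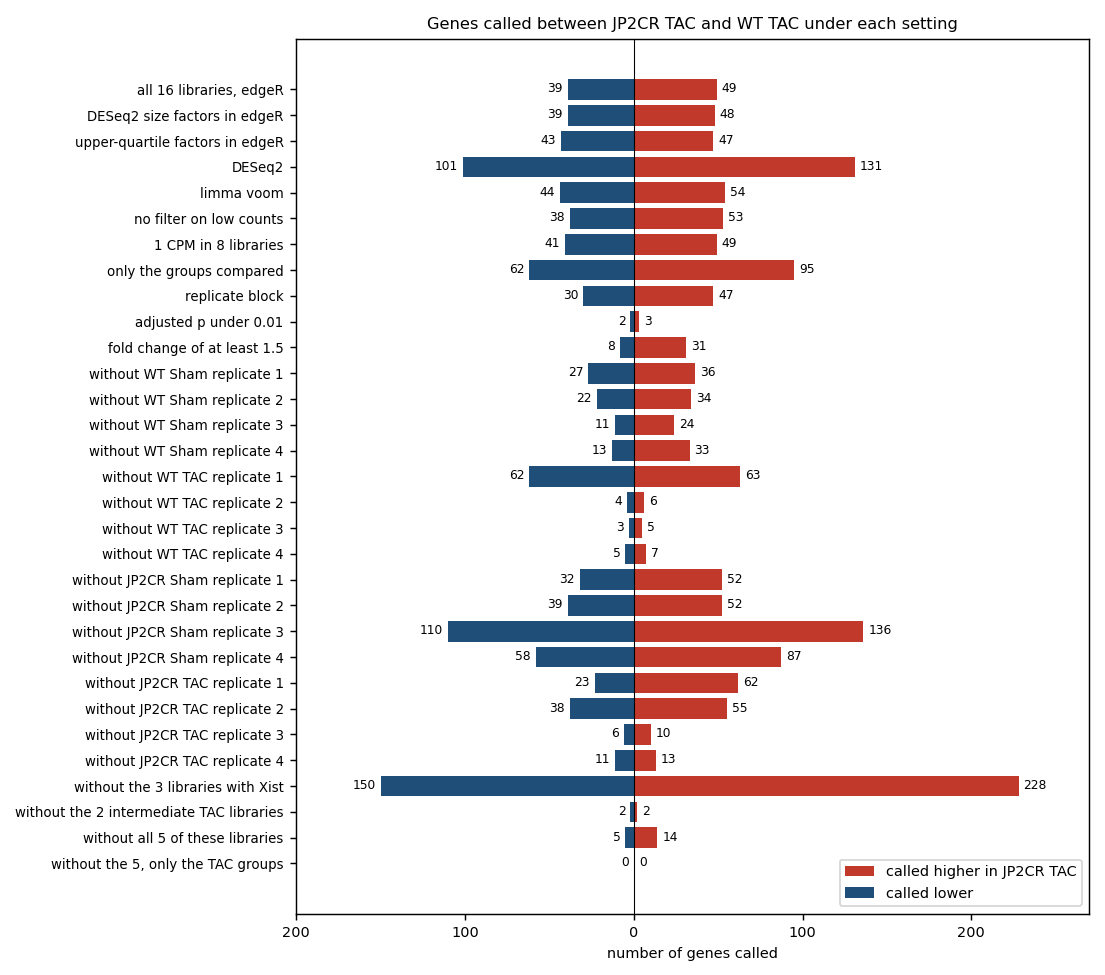
Bars give the number of genes called higher (right) and lower (left) in JP2CR TAC than in WT TAC under each setting, with the number printed at the end of each bar. Counts run from 0 and 0 without the 5 libraries that stand apart in a fit of the TAC groups to 228 and 150 without the 3 libraries with Xist.

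Rcan1 and several genes of the loaded muscle cell were lower in JP2CR TAC. Of 24 tested genes of the fetal and load response 3 were called lower (Xirp2, Rcan1 and Enah) and none higher. Over all genes tested 0.288% were called lower and 0.362% higher. The list median was -0.21, against -0.003 over all genes tested. Xirp2 encodes an actin-binding repeat protein of the intercalated disc. It was at 3408, 3493, 3412 and 3590 CPM in WT TAC 1 to 4 and at 2180, 2860, 2471 and 2114 CPM in JP2CR TAC 1 to 4, so every JP2CR library lay below every WT library (1.45-fold lower, log2 -0.53 ± 0.09 SE, adjusted p = 0.0170). Enah, which extends actin filaments, went from 410 ± 19.5 to 342 ± 22.3 CPM (SD, n = 4; log2 -0.26 ± 0.05). For comparison, WT sham ventricles had 606 ± 12.7 CPM of Xirp2 and 151 ± 5.74 CPM of Enah, far below both TAC groups. None of the 24 was called without the 2 intermediate libraries, where the median was -0.22.

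Rcan1 had the largest fall among the genes of the load list. It was at 258, 623, 438 and 460 CPM in WT TAC 1 to 4 and at 264, 205, 235 and 172 CPM in JP2CR TAC 1 to 4. WT TAC 1 fell among the JP2CR libraries while the other 3 WT libraries lay above them. The difference was 2.03-fold (log2 -1.02 ± 0.21 SE, edgeR adjusted p = 0.0313), and -1.06 with adjusted p = 0.232 without the 2 intermediate libraries. Levels after sham were 86.3 ± 4.22 CPM in WT (SD, n = 4) and 71.2 to 124 CPM in JP2CR. Rcan1 has several start sites, and the count over the gene does not separate them. RefSeq (GRCm38.p6) gives 2 promoters, shown here because calcineurin is known to act through NFAT at the internal start; the 250 bases before each start are on the minus strand, and capitals mark the NFAT core letters GGAAA on either strand.
Rcan1 upstream start, chr16:92466170-92466419: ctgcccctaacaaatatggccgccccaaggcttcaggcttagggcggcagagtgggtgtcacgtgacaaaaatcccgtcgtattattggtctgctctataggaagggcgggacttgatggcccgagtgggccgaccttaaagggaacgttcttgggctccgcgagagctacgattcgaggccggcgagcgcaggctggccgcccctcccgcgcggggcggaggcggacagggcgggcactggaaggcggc
Rcan1 internal start, chr16:92400079-92400328: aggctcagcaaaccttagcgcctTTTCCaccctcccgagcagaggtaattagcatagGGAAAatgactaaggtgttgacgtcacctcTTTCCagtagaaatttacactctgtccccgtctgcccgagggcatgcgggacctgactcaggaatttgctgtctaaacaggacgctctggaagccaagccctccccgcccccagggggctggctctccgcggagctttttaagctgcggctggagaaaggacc
The upstream window held 0 matches and the internal window 3. Among all 32851 RefSeq promoters of this length, 55.6% held at least 1 match of GGAAA and 6.39% at least 3. Over the promoters that matched the called genes, 57.1% of 63 from genes called higher and 57.1% of 42 from genes called lower held at least 1. A match is a description of the letters and not a site of binding.

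The classical load markers were not called with all libraries, while Myh7 and Nppb were called lower without the 3 libraries with Xist. Neither was called without the 2 intermediate libraries (edgeR adjusted p = 0.492 for Myh7 and 0.506 for Nppb). Without all 5 libraries that stand apart neither was called either (adjusted p = 0.0605 and 0.257). Myh7 was at 8012, 5851, 7041 and 7768 CPM in WT TAC 1 to 4 and at 4922, 4808, 4867 and 3655 CPM in JP2CR TAC 1 to 4. The groups did not overlap (log2 -0.65 ± 0.22, adjusted p = 0.189), and without the 3 libraries with Xist the difference was -0.56 ± 0.08 (adjusted p = 0.00176). Nppb, the brain natriuretic peptide gene, likewise did not overlap, at 827 to 1101 CPM in WT TAC and 575 to 808 CPM in JP2CR TAC (log2 -0.47 ± 0.16, adjusted p = 0.194; -0.39 and 0.0268 without the 3 libraries with Xist). Nppa (-0.35 ± 0.51), skeletal actin Acta1 (-0.29 ± 0.37) and alpha myosin heavy chain Myh6 (0.07 ± 0.10) overlapped between the groups. For Acta1 the lowest library was JP2CR TAC 1 with 2505 CPM against 5108 to 7240 CPM in JP2CR TAC 2 to 4. In all, 18 of the 24 estimates were negative. Of the 24, 5 were called lower without the 3 libraries with Xist, and none without the 2 intermediate libraries or without all 5.

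Genes of muscle identity and signalling were also among those called lower. Irx4, a transcription factor of ventricular muscle, was at 57.6, 47.4, 51.5 and 46.4 CPM in WT TAC 1 to 4 and at 32.1, 35.3, 36.1 and 32.7 CPM in JP2CR TAC 1 to 4, without overlap (log2 -0.58 ± 0.09, adjusted p = 0.0103). It was the only called gene of 13 ventricular markers, whose median was -0.03. Gata4, a transcription factor of the growth response, went from 198 ± 8.52 to 158 ± 4.73 CPM (SD, n = 4; log2 -0.33 ± 0.07). Together with Rcan1 and Pde4b, a phosphodiesterase that breaks down cyclic AMP (-0.31 ± 0.07), Gata4 made 3 called lower of 36 genes of kinase, calcineurin and adrenergic signalling. Over all genes tested 0.288% were called lower. The median of the signalling list was -0.01. Irx4 kept its call without all 5 libraries that stand apart (-0.58, adjusted p = 0.0443) and lost it without the 2 intermediate libraries alone (-0.60, adjusted p = 0.120).

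Plcd3 and Sh3rf2 had small SEs and stayed called without the intermediate libraries. Plcd3 encodes a phospholipase C of the delta class, which makes the second messengers IP3 and diacylglycerol. It was at 26.5, 21.7, 22.6 and 22.8 CPM in WT TAC 1 to 4 and at 15.3, 14.6, 14.0 and 13.6 CPM in JP2CR TAC 1 to 4, with no overlap (log2 -0.70 ± 0.09, adjusted p = 0.00102; -0.71 and 0.0284 without the intermediate libraries). Sh3rf2, a protein with RING finger and SH3 domains, was at 43.0, 40.8, 39.4 and 43.5 CPM in WT TAC and at 31.1, 28.3, 28.4 and 30.0 CPM in JP2CR TAC (-0.50 ± 0.05, adjusted p = 0.000579; -0.51 and 0.0134). Both were below the WT range in every JP2CR TAC library.

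Called genes of the cytoskeleton went in both directions. Synpo2l, a Z-disc protein, went from 748 ± 21.0 to 559 ± 67.1 CPM (SD, n = 4; log2 -0.42 ± 0.07), with 189 ± 12.7 CPM in WT sham. Myo18b, an unconventional myosin of the sarcomere, and Itgb5, an integrin subunit, had small differences of -0.22 ± 0.05 and -0.21 ± 0.04. Mapt, the microtubule protein tau, was at -0.34 ± 0.07. Called higher were the actin-binding Ablim3 (0.40 ± 0.08), the formin Inf2 (0.48 ± 0.10), the scaffold gene Iqgap2 (0.61 ± 0.13) and Kank3 (0.44 ± 0.08). Among growth factors, Vegfa was at -0.30 ± 0.07 with WT TAC 1 (414 CPM) inside the range reached by JP2CR TAC (385 to 417 CPM), and Csf1, the growth factor of macrophages, at -0.38 ± 0.08 without overlap. Myo18b, Itgb5, Mapt, Ablim3, Inf2, Iqgap2, Kank3, Vegfa and Csf1 were picked from the called genes after their values were seen.

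The other genes with the lowest log2 values or smallest p among those called lower held no shared list. They were the aldo-keto reductase Akr1c19 (-0.87 ± 0.18), the splicing factor Srrm4 (-0.75 ± 0.15), the zinc finger gene Zfp608 (-0.61 ± 0.13), the small GTPase Arl4c (-0.54 ± 0.11), Spsb4 (-0.52 ± 0.11), the augmin subunit Haus8 (-0.47 ± 0.09), the AP-1 subunit Fosl2 (-0.46 ± 0.09), Vps37b of the ESCRT-I complex (-0.45 ± 0.08) and the semaphorin Sema6a (-0.42 ± 0.07). Pfkp, an isoform of phosphofructokinase, was the only called gene of 23 in glucose transport and glycolysis (-0.35 ± 0.07), and Fosl2 the only called gene of 29 immediate early genes, whose median was 0.22. Immediate early genes varied widely within JP2CR TAC, where Egr1 ran from 16.5 to 220 CPM, against 27.4 to 71.8 CPM in WT TAC. The summed level of the list was 787 CPM in JP2CR TAC 1, below all WT TAC libraries, and 1260 to 1670 CPM in JP2CR TAC 2 to 4, above them.

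Cd163, the haemoglobin scavenger receptor of resident macrophages, shared the smallest adjusted p of the comparison with Sh3rf2. It was at 11.1, 14.2, 13.5 and 14.1 CPM in WT TAC 1 to 4 and at 27.0, 27.4, 26.5 and 30.3 CPM in JP2CR TAC 1 to 4. All JP2CR libraries were above all WT libraries, 2.10-fold on the fitted scale (log2 1.07 ± 0.12, edgeR adjusted p = 0.000579), and the call held without the 2 intermediate libraries (1.10, adjusted p = 0.0157) and without all 5 (1.05, adjusted p = 0.00105). Lyve1, a hyaluronan receptor of resident macrophages and lymphatic vessels, was at 14.6, 14.1, 13.6 and 14.5 CPM in WT TAC and at 27.5, 25.3, 27.3 and 27.0 CPM in JP2CR TAC (0.92 ± 0.17, edgeR adjusted p = 0.0218). Lyve1 lost its call without the 2 intermediate libraries (0.89, adjusted p = 0.229) and kept it without all 5 (0.88, adjusted p = 0.00185). In sham ventricles WT had 20.6 ± 1.15 CPM of Cd163 and 16.2 ± 0.96 CPM of Lyve1 (SD, n = 4), so Cd163 in WT TAC was below its sham level and in JP2CR TAC above it.

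**Figure D3:**
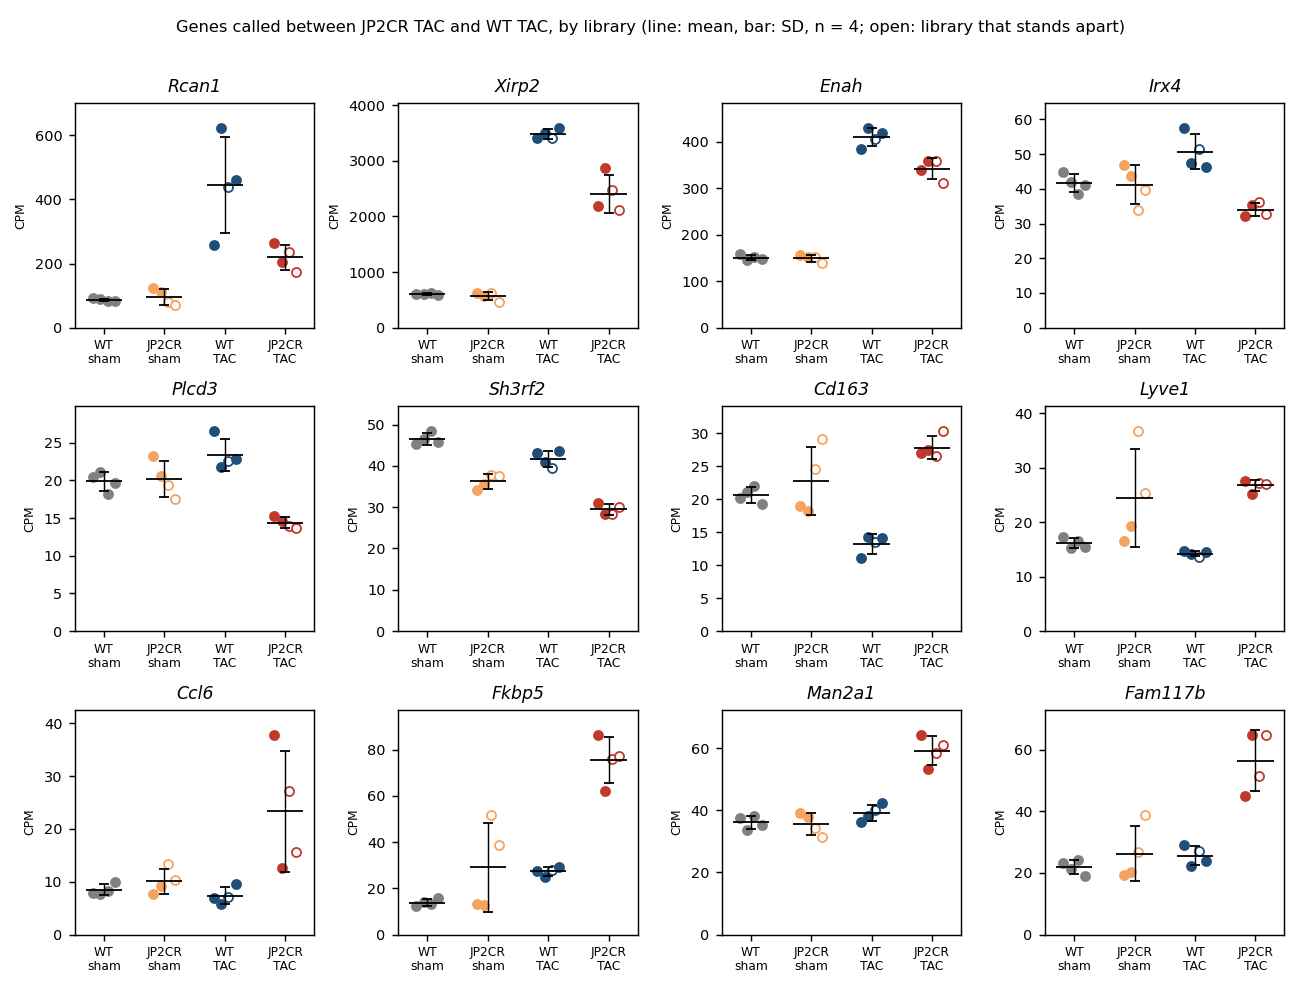
Each panel gives the CPM of 1 called gene in all 16 libraries by group, with the group mean (line) and SD (bar, n = 4); open points are the 5 libraries that stand apart. Cd163, Lyve1, Fkbp5, Man2a1 and Fam117b lie above the WT TAC range in every JP2CR TAC library, while Rcan1 overlaps through WT TAC 1.

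These 2 genes were the called members of 22 tested macrophage and monocyte markers, with a list median of 0.20. Over all genes tested 0.362% were called higher. Other markers of the list that were not called were Itgam (0.56 ± 0.15), Lyz2 (0.27 ± 0.08) and Adgre1, which encodes F4/80 (-0.22 ± 0.10). The summed level of the list was 556 to 608 CPM in WT TAC and 623 to 747 CPM in JP2CR TAC, without overlap. In bulk tissue more cells of a type and more RNA per cell cannot be told apart. Outside the list, the chemokine genes Ccl6 and Ccl9 were called higher. Ccl9 was at 7.44, 7.44, 6.37 and 9.07 CPM in WT TAC and at 18.6, 11.6, 15.4 and 15.3 CPM in JP2CR TAC (log2 1.01 ± 0.16), whereas Ccl6 spread from 12.6 to 37.9 CPM in JP2CR TAC against 5.84 to 9.64 CPM in WT TAC (1.67 ± 0.28). Ccl6 and Ccl9 are neighbours of 1 gene family, and how shared reads were counted is not given in the sources used here.

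Fkbp5, a cochaperone of the glucocorticoid receptor and a well-known target of it, was at 27.4, 24.8, 27.9 and 29.2 CPM in WT TAC 1 to 4 and at 86.5, 62.1, 76.2 and 77.3 CPM in JP2CR TAC 1 to 4. The groups were far apart (2.77-fold, log2 1.47 ± 0.30, adjusted p = 0.0313). Fkbp5 was the only called gene of 20 glucocorticoid-responsive genes, but 19 of the 20 estimates were positive, and the list median was 0.52 against -0.003 over all genes tested. With JP2CR higher, 7 of the 20 did not overlap, against 3.96% of all genes tested. The metallothionein genes Mt2 (1.47 ± 0.34, adjusted p = 0.0547) and Mt1 (0.80 ± 0.23, adjusted p = 0.118), the sulfotransferase Sult1a1 (0.79 ± 0.19, adjusted p = 0.0686) and the transcription factors Zbtb16 (1.34 ± 0.41, adjusted p = 0.151) and Klf9 (0.48 ± 0.16, adjusted p = 0.171) were among those 7. DESeq2 called 4 of the 20 higher. Without all 5 libraries that stand apart 3 were called (Fkbp5, Mt2 and Mt1), and without the 2 intermediate libraries none, at a median of 0.55.

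In sham ventricles the glucocorticoid-responsive genes had a genotype median of 0.01. Fkbp5 itself was at 13.3 and 12.9 CPM in JP2CR Sham 1 and 2, next to 13.8 ± 1.45 CPM in WT sham (SD, n = 4), and at 51.6 and 38.8 CPM in JP2CR Sham 3 and 4, the 2 libraries with Xist and no Y-linked counts. Among the JP2CR TAC libraries the 1 with Xist lay within the range of the other 3. Without the 5 libraries, which removes all those with Xist, the Fkbp5 difference after TAC was 1.46 ± 0.12 (edgeR adjusted p = 0.000258). The SE was 0.30 with all libraries, where JP2CR Sham 3 and 4 enter the shared spread. In the fit of the TAC groups alone without the 5, 0 genes were called. The Fkbp5 interaction was 0.39 ± 0.44 (adjusted p = 0.823). What part the libraries with Xist have in the Fkbp5 difference was not tested. Clock genes had 0 of 19 called by edgeR (4 at an unadjusted p under 0.05, against 12.9% of all genes tested) at a median of 0.17. The summed level of the clock list ran from 726 to 1510 CPM within WT TAC and from 1110 to 1470 CPM within JP2CR TAC.

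Endothelial markers held 1 gene called higher and a summed level that did not overlap between the groups. Esam, an adhesion molecule of endothelial junctions, was called, at 87.9, 85.9, 86.6 and 80.7 CPM in WT TAC and 94.9, 112, 105 and 113 CPM in JP2CR TAC (log2 0.31 ± 0.06, adjusted p = 0.0313). Of 20 tested markers no other was called. With JP2CR higher, 7 of the 20 did not overlap, against 3.96% of all genes tested. Among these 7 were Pecam1 (0.20 ± 0.05, adjusted p = 0.101) and Sox17 (0.49 ± 0.11, adjusted p = 0.0574). Cldn5 was an exception, at -0.53 ± 0.19 (adjusted p = 0.220). The summed level was 2800 to 2910 CPM in WT TAC and 2990 to 3410 CPM in JP2CR TAC. The semaphorin receptor gene Plxna2, which is not on the list, was called higher (0.39 ± 0.06, adjusted p = 0.0103). Smooth muscle and pericyte markers (16 tested, median 0.07) and fibroblast markers (18 tested, median -0.05) had no called member. An unadjusted p under 0.05 by edgeR was reached by 2 and 4 of them, against 12.9% of all genes tested. The summed level of the smooth muscle and pericyte list did not overlap either, but with JP2CR lower. It was 4510 to 4670 CPM in WT TAC and 4020 to 4400 CPM in JP2CR TAC.

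Of 10 neutrophil and mast cell markers 1 was called higher, and of the lymphocyte markers none was. Cma1, a chymase of mast cells, was at 0.42 to 1.09 CPM in WT TAC and at 1.77 to 2.63 CPM in JP2CR TAC (log2 1.53 ± 0.27, edgeR adjusted p = 0.0218). It was not called without the 2 intermediate libraries (adjusted p = 0.232). The mast cell protease genes Cpa3 (1.22 ± 0.30, adjusted p = 0.0713) and Tpsb2 (1.20 ± 0.33, adjusted p = 0.110) did not overlap either. These made 3 of the 10 without overlap, against 3.96% of all genes tested with JP2CR higher. Of the 10 estimates 8 were positive and 2 negative (median 0.98). T, B, NK and plasma cell markers had 0 of 9 called by edgeR (7 at an unadjusted p under 0.05) at a median of 1.42, with a summed level of 101 and 54.5 CPM in JP2CR TAC 1 and 3 against 15.6 to 18.1 CPM in JP2CR TAC 2 and 4 and 9.42 to 19.6 CPM in WT TAC. High lymphoid levels were thus in 2 of the 4 JP2CR libraries, 1 of which is intermediate between JP2CR TAC 1 and 2. None of 10 tested genes of MHC class II presentation was called by edgeR, 6 had an unadjusted p under 0.05, and all 10 estimates were positive (median 0.31). Over all genes tested, 12.9% had an unadjusted p under 0.05.

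Markers of fat and atrium each held 1 gene called higher. Of 16 adipocyte markers 1 was called, Retn, which encodes resistin and had 0 counts in all 4 WT TAC libraries and 26, 0, 19 and 23 counts in JP2CR TAC 1 to 4. Against a floor of 3 counts over the WT TAC group, Retn was at least 22.4-fold higher. The adipocyte list summed to 746 to 870 CPM in WT TAC and to 898 to 1410 CPM in JP2CR TAC, highest in JP2CR TAC 4. Its median log2 difference was 3.35, also with Retn and Ucp1, the members at 0 counts in WT TAC, set to their bounds, but it depended on the libraries: it was 1.33 without JP2CR TAC 4, 1.34 without the 3 libraries with Xist and 1.52 without all 5, and 0.64 over the 8 members tested in a fit of only the TAC groups. Retn was not called without JP2CR TAC 4. Adipoq, the adiponectin gene that defines fat cells, was at 0, 0.133, 0 and 0.642 CPM in WT TAC 1 to 4 and at 5.61, 0.161, 4.25 and 6.08 CPM in JP2CR TAC 1 to 4 (adjusted p = 0.198). Adipoq was thus high in the same 3 JP2CR TAC libraries that had Retn counts. The list sum of every JP2CR TAC library was above the WT TAC range, but this sum did not follow Adipoq. It was 898 CPM in JP2CR TAC 2, where Adipoq was at 0.161 CPM, and at least 746 CPM in WT TAC. The sum also includes Fabp4, which is on the endothelial list as well. Pparg, the adipogenic nuclear receptor, which was picked after its values were seen, was called at 0.72 ± 0.15. It was at 7.98 to 10.7 CPM in WT TAC and at 12.35, 16.1, 16.6 and 15.4 CPM in JP2CR TAC 1 to 4. JP2CR TAC 2, low in Adipoq, was thus not low in Pparg. Of 18 atrial markers, Kcnj3, a subunit of the acetylcholine-activated potassium channel, was called. It was at 32.8 to 50.8 CPM in WT TAC and 57.3 to 79.9 CPM in JP2CR TAC (log2 0.68 ± 0.13, edgeR adjusted p = 0.0313). With JP2CR higher, 7 of the 18 did not overlap, against 3.96% of all genes tested. The atrial median was 0.63, but 0.40 without JP2CR TAC 4 and 0.28 without all 5 libraries that stand apart. The atrial sums overlapped, at 5970 to 9820 CPM in WT TAC and 6390 to 7660 CPM in JP2CR TAC. The atrial light chain Myl7 was at 7.77 to 60.8 CPM in WT TAC and 85.5 to 174 CPM in JP2CR TAC (adjusted p = 0.324), and sarcolipin, Sln, at 2.25 to 22.2 and 29.0 to 58.3 CPM (adjusted p = 0.255). The part that atrial or adipose content has in the genotype differences, that of Irx4 and Nppa included, was not tested.

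Other genes with large folds or small p among those called higher belonged to no fixed list. Man2a1, a mannosidase of the Golgi that trims N-glycans, was at 36.3, 38.0, 40.0 and 42.3 CPM in WT TAC 1 to 4 and at 64.4, 53.4, 58.4 and 60.9 CPM in JP2CR TAC 1 to 4, without overlap (log2 0.60 ± 0.07, adjusted p = 0.00102; 0.62 and 0.0284 without the intermediate libraries). Fam117b was at 29.0, 22.3, 27.2 and 23.9 CPM in WT TAC and at 45.1, 64.9, 51.4 and 64.8 CPM in JP2CR TAC (1.15 ± 0.17, adjusted p = 0.00924; 1.22 and 0.0795). Every JP2CR library was again above the WT range for both.

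Timp4, an inhibitor of matrix metalloproteinases that the heart expresses, went from 17.6 ± 6.45 CPM in WT TAC to 42.5 ± 3.37 CPM in JP2CR TAC (SD, n = 4; log2 1.29 ± 0.26), without overlap. Its WT sham level was 26.6 ± 0.99 CPM, between the TAC groups. Gdf10, a growth factor of the BMP class, was below its WT sham level in both TAC groups, with 5.35 ± 0.11 CPM in WT sham, 1.78 ± 0.67 in WT TAC and 3.80 ± 0.56 in JP2CR TAC (log2 1.10 ± 0.20). The remaining named genes called higher were the kinase Map3k6 (1.24 ± 0.27), the steroid sulfate transporter Slc10a6 (1.19 ± 0.26), the interferon-activated gene Ifi205 (1.15 ± 0.21), the bicarbonate transporter Slc4a8 (1.11 ± 0.21), the surface glycoprotein Cd24a (1.07 ± 0.23) and Mcf2l (1.03 ± 0.23). Ifi205 has near-identical relatives, so its count is uncertain. In WT TAC 2 Timp4, Map3k6, Slc10a6, Ifi205, Slc4a8, Cd24a and Mcf2l all had their lowest WT value.

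Genes of the junction that junctophilin-2 builds were not called. Of 30 dyad and calcium handling genes edgeR called 0, with a median of 0.02 and an unadjusted p under 0.05 for 5 (12.9% over all genes tested). The release channel Ryr2 differed by -0.08 ± 0.07 and the calcium pump Atp2a2 by 0.12 ± 0.06 (adjusted p = 0.720 and 0.379). Of 10 calpain genes 0 were called and 2 had an unadjusted p under 0.05 by edgeR: Capn1 was at 0.08 ± 0.07, Capn2 at 0.13 ± 0.05 and the inhibitor calpastatin, Cast, at -0.04 ± 0.06. Sarcomere genes (31 tested, median -0.05) and ion channels and transporters (30 tested, median -0.04) had no called member either, with 12 and 5 under an unadjusted p of 0.05. The gap junction gene Gja1 (-0.45 ± 0.14, adjusted p = 0.142) did not overlap between the groups, with JP2CR lower.

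The lists of matrix, respiratory chain and fat oxidation genes held no called member. Timp4 (1.29 ± 0.26) and Efemp1 (0.90 ± 0.16), which are not on the matrix list, were called higher. Of 50 extracellular matrix genes the median was -0.08, 33 estimates were negative and 12 had an unadjusted p under 0.05 by edgeR (12.9% over all genes tested). The thrombospondin gene Thbs4 was at 84.1 to 211 CPM in WT TAC and 45.9 to 85.2 CPM in JP2CR TAC (log2 -1.03 ± 0.23, adjusted p = 0.0543), and Postn, which marks activated fibroblasts, at -0.52 ± 0.20 (adjusted p = 0.277). Respiratory chain genes were tightly grouped, with 42 estimates between -0.08 and 0.07 and an unadjusted p under 0.05 for 0. Fatty acid oxidation (34 tested, median 0.06), the tricarboxylic acid cycle (16, median 0.02) and branched-chain amino acid catabolism (21, median -0.01) were likewise without calls, with an unadjusted p under 0.05 for 7, 0 and 1, and Nnt, the mitochondrial transhydrogenase, was at -0.01 ± 0.06. For chaperones of the endoplasmic reticulum 21 of 23 estimates were positive, the median was 0.16 and 0 were called, while 12 had an unadjusted p under 0.05 by edgeR, with Hspa5 at 0.20 ± 0.06 (adjusted p = 0.156). Over 41 lists, 11 had a called member.

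**Figure D4:**
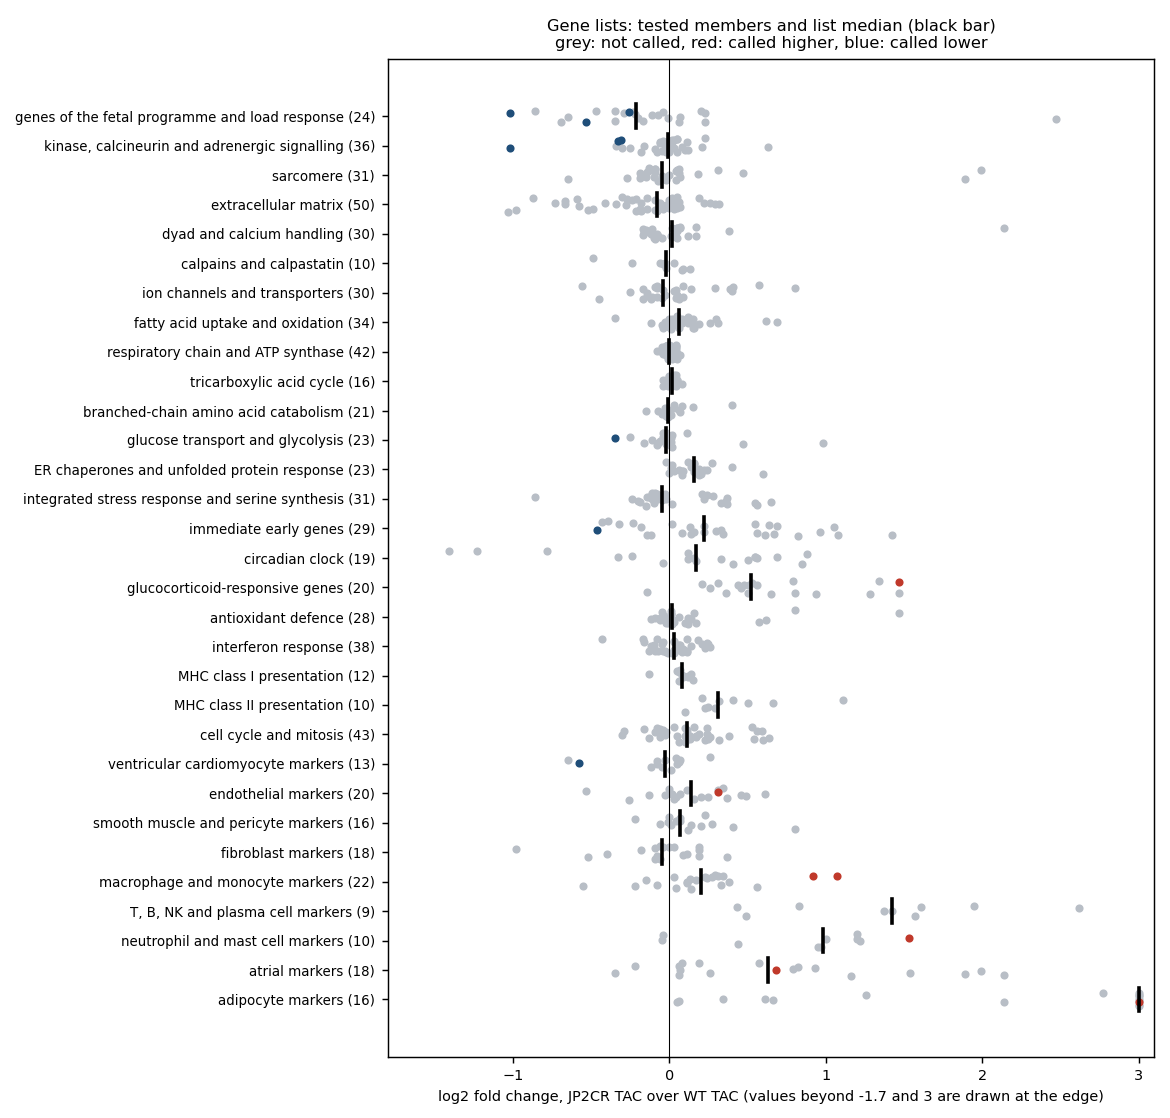
Points are the tested members of each list (number in brackets), by their log2 fold change of JP2CR TAC over WT TAC; grey points were not called, red were called higher, blue lower, and the black bar is the list median. Medians lie near 0 for most lists, at 0.52 for glucocorticoid-responsive genes and at -0.21 for the fetal and load genes, and the adipocyte median of 3.35 (1.33 without JP2CR TAC 4) is drawn at the right edge.

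Few of the called genes were also called between the genotypes after sham surgery. In the sham libraries 13 genes were called (0.0961% of 13522), all lower in JP2CR, and 2 of them were also called after TAC, Sh3rf2 and Fosl2. These are 2.27% of the TAC calls and 15.4% of the sham calls. Sh3rf2 was at 46.5 ± 1.38 CPM in WT sham and 34.1 to 37.8 CPM in JP2CR sham (log2 -0.36 ± 0.05, adjusted p = 0.0122), and Fosl2 at 78.8 ± 8.14 and 43.4 to 55.3 CPM (-0.73 ± 0.10, adjusted p = 0.00356). The median sham difference was 0.06 over the 49 genes called higher after TAC and -0.01 over the 39 called lower, and 30 and 20 of them had the same sign in sham. JP2CR Sham 3 and 4 had Xist and no Y-linked counts, unlike every WT sham library. Without the 3 libraries with Xist 64 genes were called in sham. What part these libraries have in the small overlap was not tested.

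**Figure D5:**
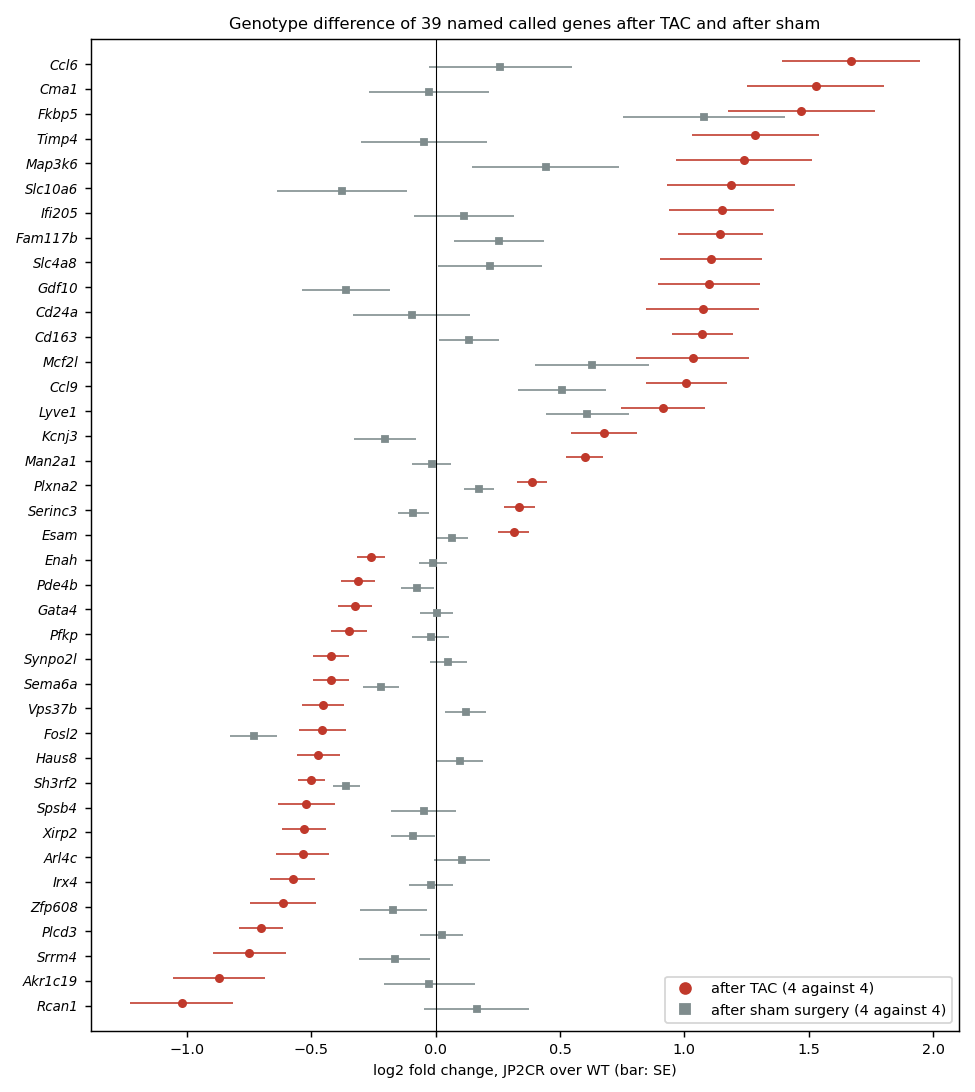
Red circles give the log2 fold change of JP2CR over WT after TAC and grey squares that after sham surgery, each with its SE, for 39 named called genes (Retn, at 0 counts in WT TAC, is left out). Most sham values lie near 0. Sh3rf2 and Fosl2 are lower in both, and Fkbp5, Lyve1, Mcf2l and Ccl9 have sham values above 0.5 that were not called. For these 4 genes JP2CR Sham 3 and 4, which had Xist and no Y-linked counts, lay above JP2CR Sham 1 and 2. In JP2CR Sham 1 to 4 Lyve1 was at 16.5, 19.3, 36.7 and 25.4 CPM and Mcf2l at 53.9, 45.8, 102 and 126 CPM.

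Whether the genotype difference itself changed with surgery was tested by the interaction, which called 16 genes (0.118%), 12 with a higher and 4 with a lower difference after TAC. Of these, 7 were among the 88: Gdf10 (1.46 ± 0.27), Efemp1 (1.31 ± 0.22), Cd163 (0.94 ± 0.17), Man2a1 (0.62 ± 0.11), Plcd3 (-0.73 ± 0.12), Vegfa (-0.59 ± 0.10) and Tnik (-0.56 ± 0.10). Plcd3 for example was at 19.8 ± 1.21 CPM in WT sham and 17.5 to 23.2 CPM in JP2CR sham, overlapping. Nppb had an interaction of -1.13 ± 0.23 (adjusted p = 0.0549), with 123 ± 7.93 CPM in WT sham and 125 to 269 CPM in JP2CR sham. Without the 2 intermediate libraries 0 genes were called in the interaction by edgeR, with 579 higher and 470 lower at an unadjusted p under 0.05, and 372 were without the 3 libraries with Xist.

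After TAC 0.651% of all genes tested were called. Of the 171 tested genes within 10 Mb of Jph2 on chromosome 2, 1 (0.585%) was called. This was Serinc3, at chr2:163623273-163645149 (RefSeq, GRCm38.p6), 225224 bases from Jph2, a membrane protein of the serine incorporator family. It was at 440, 406, 413 and 417 CPM in WT TAC and at 512, 545, 501 and 558 CPM in JP2CR TAC, without overlap (log2 0.34 ± 0.06, adjusted p = 0.0218). After sham surgery it was at 545 ± 33.2 CPM in WT (SD, n = 4) and 457 to 552 CPM in JP2CR, so a difference in 1 direction was not seen there (-0.09 ± 0.06).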

How the data were processed

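Per the labels' protocols, ventricular polyadenylated RNA was sequenced from stranded libraries. The authors deposited whole-number read counts per gene symbol, not normalized. Mouse build mm10 and FastQC 1.0.0, Picard 1.128, STAR 2.5.0b, Cufflinks 2.2.1, bedtools 2.17.0 and DESeq2 1.6.3 are listed, without roles, in the submitters' processing notes. The counter and the strand it used are not stated there. Overlapping genes and gene families may therefore share reads.

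Of 24421 entries 27 had symbols turned into dates and 2 symbols stood on 2 entries; 13522 passed filterByExpr by group. edgeR 4.0.16 in R 4.3.3 fitted a mean per group over all 16 libraries with TMM factors, and tested contrasts with the quasi-likelihood F test (adjusted p under 0.05, Benjamini-Hochberg). All groups entered the fit so that 1 estimate of the spread is shared. The SE is the size of the log2 fold change over the square root of F. CPM use the TMM-scaled totals; Xist and Y-linked CPM use raw totals.

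The comparison, the gene lists and the naming rule were chosen with earlier results of these data known. Named were 12 genes always; the 12 highest and 12 lowest log2 fold changes and the 6 smallest p in each direction among called genes with a log2 CPM averaging 1 or more, no overlap and no predicted-gene symbol; 3 called members per list; and genes called near Jph2 or in both genotype comparisons. List members that were not called, the lists' contrasts in sham and the genes said to be picked later were chosen after values were seen. Markers that were not called are printed with their values only.

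Alternatives were DESeq2 1.42.0, limma 3.58.1 voom, other scaling factors, other filters, fewer groups, a replicate block, stricter thresholds and the omission of each library in turn. The libraries that stand apart were also left out together, in fits of which the last (without the 5, TAC groups only) was added after the data were seen. On simulated counts for JP2CR TAC against WT TAC (13444 genes) 76.1%, 95.5% and 98.5% of genes changed 1.5-, 2- and 4-fold were recovered, with 4 false calls; intermediate libraries were not part of the simulation.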

Additional observations from a re-analysis of the deposited data

Results flagged for a closer look

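The genotype difference of 4 named genes differed between TAC and sham by the edgeR interaction test, as log2 values of 1.46 for Gdf10, 0.94 for Cd163, 0.62 for Man2a1 and -0.73 for Plcd3. In 104 groups of 4 libraries over the named genes, a single library lay far from the other 3 in 7, and chance alone gives about 1 in 20 groups. In JP2CR TAC 4, the library with both Xist and Y-linked counts, Myh6 was at 27600 CPM (24000 to 24400 in the other 3), Myh7 at 3660 (4810 to 4920) and Nnt at 1180 (1080 to 1090). In JP2CR TAC 3, an intermediate library, Gdf10 was at 4.63 CPM and Sema6a at 21.2 CPM, outside the range of JP2CR TAC 1 and 2. Ryr2 was at 2460 CPM in WT TAC 4, and Slc4a8 at 5.66 CPM in WT TAC 1, the WT TAC library nearest to the JP2CR TAC range for that gene. What sets these values apart was not tested.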

How the results depend on the processing

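Counts of genes are given in the order higher after TAC, lower after TAC, called in sham, called in the interaction; with all 16 libraries they were 49, 39, 13 and 16. DESeq2 gave 131, 101, 52 and 133. A fit of only the groups compared gave 95 higher and 62 lower after TAC. An adjusted p under 0.01 left 3, 2, 2 and 0, and a fold of at least 1.5 left 31, 8 and 5 for the first 3. With no filter on low counts 25 and 39 were called in sham and the interaction. With the replicate number as a block the counts were 47, 30, 22 and 9. Same-numbered TAC libraries of the 2 genotypes correlated at -0.02 to 0.11, so the numbers were not taken to pair them, and 1 of the 4 WT libraries correlated best with its own number. Without the 3 libraries with Xist the counts were 228, 150, 64 and 372, without the 2 intermediate TAC libraries 2, 2, 6 and 0, and without all 5 14, 5, 22 and 59. With these 5 left out and only the TAC groups fitted, 0 and 0 genes were called after TAC. Leaving out 1 library at a time gave 5 to 136, 3 to 110, 5 to 28 and 2 to 120. The lowest TAC counts were 5 and 3 without WT TAC 3, 6 and 4 without WT TAC 2, 7 and 5 without WT TAC 4, 10 and 6 without JP2CR TAC 3 and 13 and 11 without JP2CR TAC 4, and the highest were 136 and 110 without JP2CR Sham 3. Of the 52 named genes 40 were called with all libraries, and only these could lose a call. Among 1453 alternative values over all 52, 351 lost the call in the same direction. The sign changed in 3, all for Nnt, which ranged from -0.048 (without WT TAC 2) to 0.031 (without WT TAC 4) over the fits that left out 1 library. The cause of these changes was not tested. Other scaling factors, limma voom and a stricter filter kept the TAC counts within 1.5 times. Genes near the floor of 3 counts, such as Cma1 and Retn, rest on few reads.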

Other observations

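Klf2 and Sik1 were called lower in JP2CR after sham surgery and not called after TAC. Klf2, a transcription factor of endothelium, was at 70.7 ± 3.14 CPM in WT sham and 37.4 ± 1.76 in JP2CR sham (SD, n = 4; log2 -0.92 ± 0.11, edgeR adjusted p = 0.00206), and at 54.5 ± 3.38 and 48.1 ± 10.3 CPM after TAC (-0.18 ± 0.11, adjusted p = 0.538). Sik1, a salt-inducible kinase, had a sham difference of -1.14 ± 0.17 and one of -0.05 ± 0.17 after TAC. The interaction missed the threshold for both (adjusted p = 0.0549 and 0.0705). Sgk1, a kinase induced by glucocorticoids, differed in the interaction (1.19 ± 0.17, adjusted p = 0.0128), with -0.75 ± 0.12 in sham and 0.44 ± 0.12 after TAC. The antigen presentation genes B2m (0.58 ± 0.10), H2-K1 (0.46 ± 0.08) and H2-Eb1 (0.71 ± 0.12), the mitochondrial pyruvate carrier Mpc1 (0.47 ± 0.07) and the transcription factor Hand2 (0.90 ± 0.16) were also called in the interaction. JP2CR sham holds the 2 libraries with Xist and no Y-linked counts. These genes were picked after their values were seen.

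The first principal component of the 8 TAC libraries held 30.6% of the variance. WT TAC 1 to 4 were at -2.6, -26.2, -13.4 and -12 on it and JP2CR TAC 1 to 4 at 25.2, -0.7, 17.1 and 12.6, so the groups met at WT TAC 1 and JP2CR TAC 2.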
